A study of Mus musculus with 6 samples.

Results

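The 9 genes Stra6, Lrat, Rpe65, Rdh5, Rlbp1, Rgr, Rdh10, Rdh12 and Rbp3 encode retinoid uptake, conversion and carrier proteins of the visual cycle, and were listed by name from known function. All 9 were among the 52636 genes of the count table, each under 1 Ensembl identifier. Their transcripts were counted as unique molecular identifiers (UMIs, 1 per captured RNA molecule) in 46375 single cells from 6 mouse retinas, 3 labelled Dram2 WT and 3 labelled Dram2 KO. All mice were C57BL/6J males aged 12 months, and the labels report no treatment. The KO mice are a constitutive CRISPR/Cas9 knockout strain, in which an inner part of Dram2 around exon 4 is deleted in every cell, whereas the WT mice carry the intact gene. Replicate 3 of each genotype is labelled batch 1, and replicates 1 and 2 are labelled batch 2. The authors placed 45746 of the cells in 5 types from clusters of these counts: 42359 photoreceptors, 2083 interneurons, 942 glia, 246 mesenchymal cells and 116 retinal pigment epithelium (RPE) cells.

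Vision depends on 11-cis-retinal, the chromophore that light converts to the all-trans form inside opsins. Photoreceptors reduce the released all-trans-retinal to retinol, which passes through the space between the cells to the RPE, where it is esterified, isomerised and oxidised back to 11-cis-retinal. Müller glia also handle retinoids and carry a retinaldehyde-binding protein, and cones can draw on a supply from that side.

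Libraries held 3463728 to 6563762 UMIs per retina. Mitochondrial genes took 0.405% to 0.720% of the UMIs in batch 2 and 2.75% to 3.22% in batch 1. The RPE cells came to 25, 25 and 23 in the WT retinas and 17, 16 and 10 in the KO retinas, without overlap, at a median of 662 to 1249 and 881 to 1720 UMIs per cell. They held 17073 to 35968 UMIs in sum, against at least 2892834 UMIs in the photoreceptors of each retina. Every RPE value therefore rests on few cells. The study describes RPE cells in these retina samples as an artifact of the isolation. Their number per retina therefore does not measure the RPE of the eye. Levels are given as CPM, the UMIs of a gene per 1000000 UMIs of all genes in a type of a retina, and each mean ± SD is over the 6 retinas. A 3′ method counts molecules near their poly(A) end, so the levels of 1 gene were compared across cell types, and levels of different genes are not compared. Since the authors clustered the cells on the same UMIs, type differences are described by their ranges and carry no test.

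The RPE label was checked with 10 pigment epithelium markers that are not among the 9 genes. Of these, 9 had at least 1 UMI in the RPE cells, and their summed level ran from 1983 to 2617 CPM per retina against 208 to 386 in glia and 14.5 to 18.1 in photoreceptors. Ermn gave 138 UMIs and Trpm3 85, whereas the melanin genes were sparse, with 15 UMIs of Tyrp1 and 13 of Tyr, and Best1 had 0 UMIs. Summed over the WT and then the KO retinas, Pmel, a melanosome matrix gene, gave 0 and 22 UMIs, Mlana 1 and 6, Tyrp1 6 and 9 and Slc45a2 1 and 2. Ermn gave 93 and 45, Trpm3 50 and 35, Slc6a20a 32 and 21, Tyr 8 and 5 and Mitf 5 and 1. These are raw UMIs, and the KO retinas held fewer RPE cells. Photoreceptor RNA was present as well: the summed level of 9 rod markers in the RPE cells was 4747 to 9786 CPM. Of 10 Müller glia markers, the glutamate transporter gene Slc1a3 and the potassium channel gene Kcnj10 had 0 UMIs in RPE cells, although the list as a whole reached 16848 to 27816 CPM there through its other members.

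The promoters of Rpe65, Rgr and Rbp3 are shown because they hold the core motif of the OTX/CRX transcription factors, a family known to act in both RPE and photoreceptors. The 250 bases before the RefSeq start are given on the gene's strand (GRCm38.p6), 5′ to 3′, and capitals mark the OTX/CRX core TAATCC or its reverse complement GGATTA, searched on both strands.
Rpe65, chr3:159598931-159599180, plus strand: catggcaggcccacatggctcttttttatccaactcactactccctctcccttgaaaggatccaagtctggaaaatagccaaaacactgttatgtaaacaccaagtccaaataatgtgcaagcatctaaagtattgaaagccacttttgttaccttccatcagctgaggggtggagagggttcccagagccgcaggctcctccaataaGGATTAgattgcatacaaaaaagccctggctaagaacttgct
Rgr, chr14:37049015-37049264, minus strand: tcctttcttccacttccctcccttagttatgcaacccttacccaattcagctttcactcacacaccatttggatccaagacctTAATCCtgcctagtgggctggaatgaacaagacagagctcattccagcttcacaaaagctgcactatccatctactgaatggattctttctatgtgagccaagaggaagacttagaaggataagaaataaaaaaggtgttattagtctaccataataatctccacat
Rbp3, chr14:33953753-33954002, plus strand: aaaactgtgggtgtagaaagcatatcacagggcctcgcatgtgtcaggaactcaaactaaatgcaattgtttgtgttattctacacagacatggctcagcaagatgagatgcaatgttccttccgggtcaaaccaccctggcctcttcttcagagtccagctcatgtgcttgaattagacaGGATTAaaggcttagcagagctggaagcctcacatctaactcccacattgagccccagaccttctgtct
The core began 42 bases before the start of Rpe65, 167 before that of Rgr and 69 before that of Rbp3. It was found in 3 of the 11 windows of the 8 genes with a promoter in the table, and in 2054 (6.25%) of all 32851 windows of the same length. The motif was chosen with these promoters in view, so nothing is read from the difference between these shares. Lrat, Rdh5, Rlbp1, Rdh12 and the 4 windows of Stra6 did not hold these letters, which says nothing of the factors themselves.

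Retinol entry was counted in the RPE and, beside it, in blood vessel cells. Stra6 encodes the receptor that takes retinol from its plasma carrier into cells, and lies on chromosome 9 from 58063788 to 58153996 (GRCm38, GENCODE M21). In RPE cells it stood at 412, 301 and 778 CPM in the WT retinas and at 447, 532 and 937 CPM in the KO retinas, a mean of 568 ± 242 from 85 UMIs. Mesenchymal cells followed with 85.9, 256 and 187 CPM in WT and 307, 219 and 334 CPM in KO, a mean of 232 ± 89.6 from 123 UMIs. The ranges of the RPE and the mesenchymal cells overlapped across retinas, but within each of the 6 retinas the RPE cells were higher, with the mesenchymal level at 20.9% to 85.2% of theirs. In RPE cells both batch 1 retinas (mean 858 CPM) stood above the 4 of batch 2 (mean 423 CPM). Photoreceptors, interneurons and glia had means of 2.61, 1.70 and 1.12 CPM.

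The mesenchymal type was split by lists of endothelial, pericyte, fibroblast and microglia markers, a cell going to the list whose UMIs exceeded those of the other lists together. Of the 123 mesenchymal Stra6 UMIs, 116 (94.3%) lay in the 115 cells led by the endothelial list, where 49 cells had at least 1. The level in these vessel-lining cells was 272, 505 and 373 CPM in WT and 388, 377 and 432 CPM in KO, a mean of 391 ± 76.6, inside the range of the RPE. The 85 cells led by the microglia list had 0 UMIs of Stra6, and the 29 led by the pericyte list had 7.

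**Figure D1:**
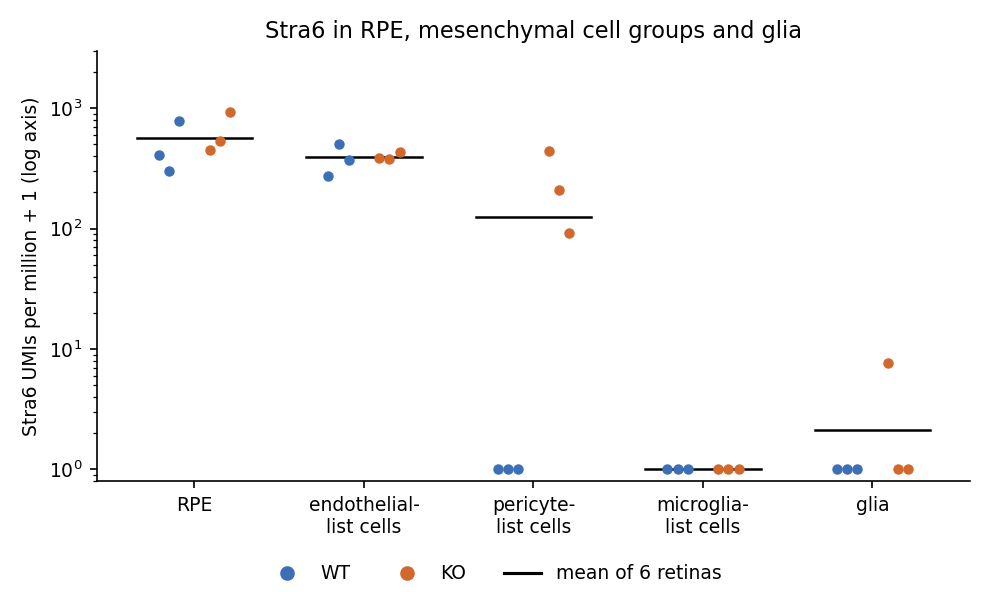
Stra6 level (CPM plus 1, log axis) in RPE cells, in mesenchymal cells split by marker list and in glia. Each point is a retina (blue WT, orange KO), points on the lowest line are retinas with 0 UMIs, and the bar is the mean. RPE cells (301 to 937 CPM) and endothelial-list cells (272 to 505 CPM) overlap, while microglia-list cells are at 0 in each retina. Pericyte-list cells number 29 in all.

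Esterification, isomerisation and the final oxidation were counted mostly in RPE cells, which held 87.2% of the typed Lrat UMIs, 89.9% of those of Rpe65 and 81.2% of those of Rdh5. Photoreceptors, with far more cells, held 9.74% to 16.1% of the Rdh5 UMIs of a retina. By level, the log2 ratio of Rpe65 to the next type was 10.4, and ran from 9.71 with the mean over cells to 11.13 in batch 1 alone. That of Rdh5 was 9.36, against 17 glial UMIs with 2 retinas at 0. Lrat, Rpe65 and Rdh5 encode lecithin retinol acyltransferase, the isomerohydrolase that makes 11-cis-retinol from the esters, and the 11-cis-retinol dehydrogenase. Rpe65 lies on chromosome 3 from 159599175 to 159625321. It gave 2020.4, 3684 and 2641 CPM in the RPE cells of the WT retinas and 2773, 3505 and 3221 CPM in those of the KO retinas. The mean was 2974 ± 618 from 443 UMIs, which were 89.9% of the Rpe65 UMIs of all typed cells. The lowest RPE value was 2020.4 CPM, and no retina exceeded 8.14 CPM in another type. At least 1 Rpe65 UMI was found in 94 of 116 RPE cells (81.0%, exact 95% interval 72.7% to 87.7%) and in 45 of 42359 photoreceptors (0.106%). The interval pools the cells of all retinas and covers counting error only, not the spread between retinas.

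Rdh5 (chromosome 10, 128913593 to 128922888) gave 5238, 5639 and 4309 CPM in WT and 5501, 5945 and 8024 CPM in KO RPE cells, a mean of 5776 ± 1234 from 839 UMIs. Its exons overlap those of Bloc1s1 on the same strand, but its last exon, near which a 3′ method counts, does not. Glia, the next type, had 8.81 ± 8.98 CPM and photoreceptors 7.07 ± 1.63 CPM, and these ranges overlapped. In photoreceptors Rdh5 was at 0.127% of its RPE level (0.0613% to 0.156% over the retinas), and the transthyretin gene Ttr at 0.0954% of its own (0.0451% to 0.126%).

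Lrat (chromosome 3, 82892579 to 82903973) was counted sparsely. Its RPE level was 412, 188 and 834 CPM in WT and 179, 355 and 586 CPM in KO, a mean of 426 ± 251 from 68 UMIs. Replicate 3 was the highest of its genotype for both WT and KO, and the batch 1 mean of 710 CPM stood apart from the batch 2 mean of 283. Interneurons had 0 UMIs of Lrat, which allows up to 0.703 CPM (3 counts of the total, counting error only), and glia and mesenchymal cells had 1 each.

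Single cells showed how far these steps were counted together. Each of the 116 RPE cells had a UMI of at least 1 of Lrat, Rpe65, Rdh5 and Rgr, 115 had at least 2 of these genes and 40 had all 4. Outside the RPE, 3 typed cells had 2 or more of the 4, while 447 photoreceptors, 98 glia, 57 interneurons and 4 mesenchymal cells had at least 1. Cells with all 4 had a median of 1516.5 UMIs against 1145 for those with 2 or more, so depth moved with this count. The clusters were made from these counts, so the cells of the RPE type share these genes partly by construction.

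Rgr, the RPE and glial opsin that binds all-trans-retinal and is known as a photoisomerase, was highest in RPE cells and low but separate in glia. On chromosome 14 it runs from 37034909 to 37048964. RPE cells held 11000.1, 13345 and 10648 CPM in WT and 12434, 13797 and 13530.1 CPM in KO, a mean of 12459 ± 1351 from 1852 UMIs. Glia held 61.1, 40.2 and 66.2 CPM in WT and 87.1, 34.4 and 48.2 CPM in KO, a mean of 56.2 ± 19.4 from 89 UMIs. The lowest glial value lay above the highest photoreceptor value of 17.6 CPM, and mesenchymal cells had 0 UMIs, which allows up to 5.60 CPM.

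The glial signal of Rgr was set beside that of other transcripts with their highest level in RPE cells. Glia held 0.464% of the Rgr level of RPE cells (0.249% to 0.701% over the retinas) and 0.0774% of the Ttr level (0.0461% to 0.15%), with no overlap between these ranges. The Rgr range overlapped those of Rdh5 (0 to 0.437%), Stra6 (0 to 1.5%) and Lrat (0 to 0.265%). It lay above that of Rpe65 (0 to 0.0788%), and Lrat and Rpe65 rest on 1 glial UMI each. It lay below those of Rdh10 (13.9% to 21.6%) and of the summed RPE markers (9.29% to 17.6%). In photoreceptors the corresponding shares were 0.103% for Rgr and 0.0954% for Ttr. At least 1 Rgr UMI was found in 80 of 942 glia (8.49%, exact 95% interval 6.79% to 10.5%; median 1683 UMIs per cell) and in 253 of 42359 photoreceptors (0.597%, 0.526% to 0.675%; median 428 UMIs). These intervals pool the cells of all retinas and cover counting error only, not the spread between retinas. Thinned to 300 UMIs per cell, with 21 glia and 13970 photoreceptors left out as shallower, the shares were 1.72% (0.816% to 2.52% over the retinas) and 0.356% (0.135% to 0.530%). All but 1 of the 942 glia were led by the Müller list, set against an astrocyte list. The 2 lists hold 10 and 3 genes and summed to 46710 to 58458 and 78.7 to 348 CPM in glia. With lists so unequal, this split cannot tell Müller cells from astrocytes.

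The retinaldehyde carrier was shared by glia and RPE. Rlbp1 encodes CRALBP, which binds 11-cis-retinal and 11-cis-retinol, and lies on chromosome 7 from 79374870 to 79387048. Glia had 4269, 3895 and 5377 CPM in WT and 4584, 3969.9 and 5493 CPM in KO, a mean of 4598 ± 694 from 7563 UMIs. RPE cells had 2544, 2444 and 2391 CPM in WT and 2326, 2484 and 2753 CPM in KO, a mean of 2490.3 ± 149 from 374 UMIs. Each glial value lay above each RPE value, and the ratio of the means was 1.85. Per cell, thinned to 300 UMIs, 71.5% of glia (63.0% to 75.6% over the retinas), 49.4% of RPE cells (44.1% to 57.2%) and 1.45% of photoreceptors had a Rlbp1 UMI, against 93.8%, 82.8% and 2.41% before thinning. Batch 1 retinas were the highest in glia, with a mean of 5435 CPM against 4179.6 in batch 2.

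In the RPE the Rlbp1 level was 55.0% of the glial level (44.5% to 62.7% over the retinas), whereas Glul, the glutamine synthetase gene of Müller glia, was at 3.92% (3.14% to 4.96%). The summed level of the 10 Müller glia markers, Glul among them, was at 47.0% (30.4% to 59.6%), a range that overlapped that of Rlbp1. In photoreceptors Rlbp1 was at 1.05% of its glial level and Glul at 0.882%, with overlapping ranges. Photoreceptor, interneuron and mesenchymal means of Rlbp1 were 49.3, 48.9 and 84.5 CPM, and their ranges overlapped. Among mesenchymal cells, 34 of the 47 Rlbp1 UMIs came from 9 of the 85 microglia-list cells.

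Rdh10, a retinol dehydrogenase that oxidises all-trans-retinol and has been linked to the 11-cis step as well, was counted in the same pair of types in the reverse order. It lies on chromosome 1 from 16105774 to 16133734. RPE cells had 1309.5, 1654 and 1835 CPM in WT and 805, 1686 and 1816 CPM in KO, a mean of 1518 ± 397 from 232 UMIs. Glia had 279, 241 and 342 CPM in WT and 174, 234 and 256 CPM in KO, a mean of 254 ± 55.3 from 425 UMIs. The types did not overlap and differed 5.97-fold, and interneurons and photoreceptors followed with 12.0 ± 3.87 and 8.97 ± 2.21 CPM. Batch 1 retinas were the highest in RPE cells (mean 1825 CPM against 1364). Pooled over the retinas, glia held 47.2% of the typed Rdh10 UMIs and the RPE cells 25.7%. The order varied: RPE cells held more than glia in WT replicate 2 (38.6% and 31.6%) and KO replicate 2 (39.2% and 35.1%), and photoreceptors held the most in KO replicate 1 (38.7%).

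**Figure D2:**
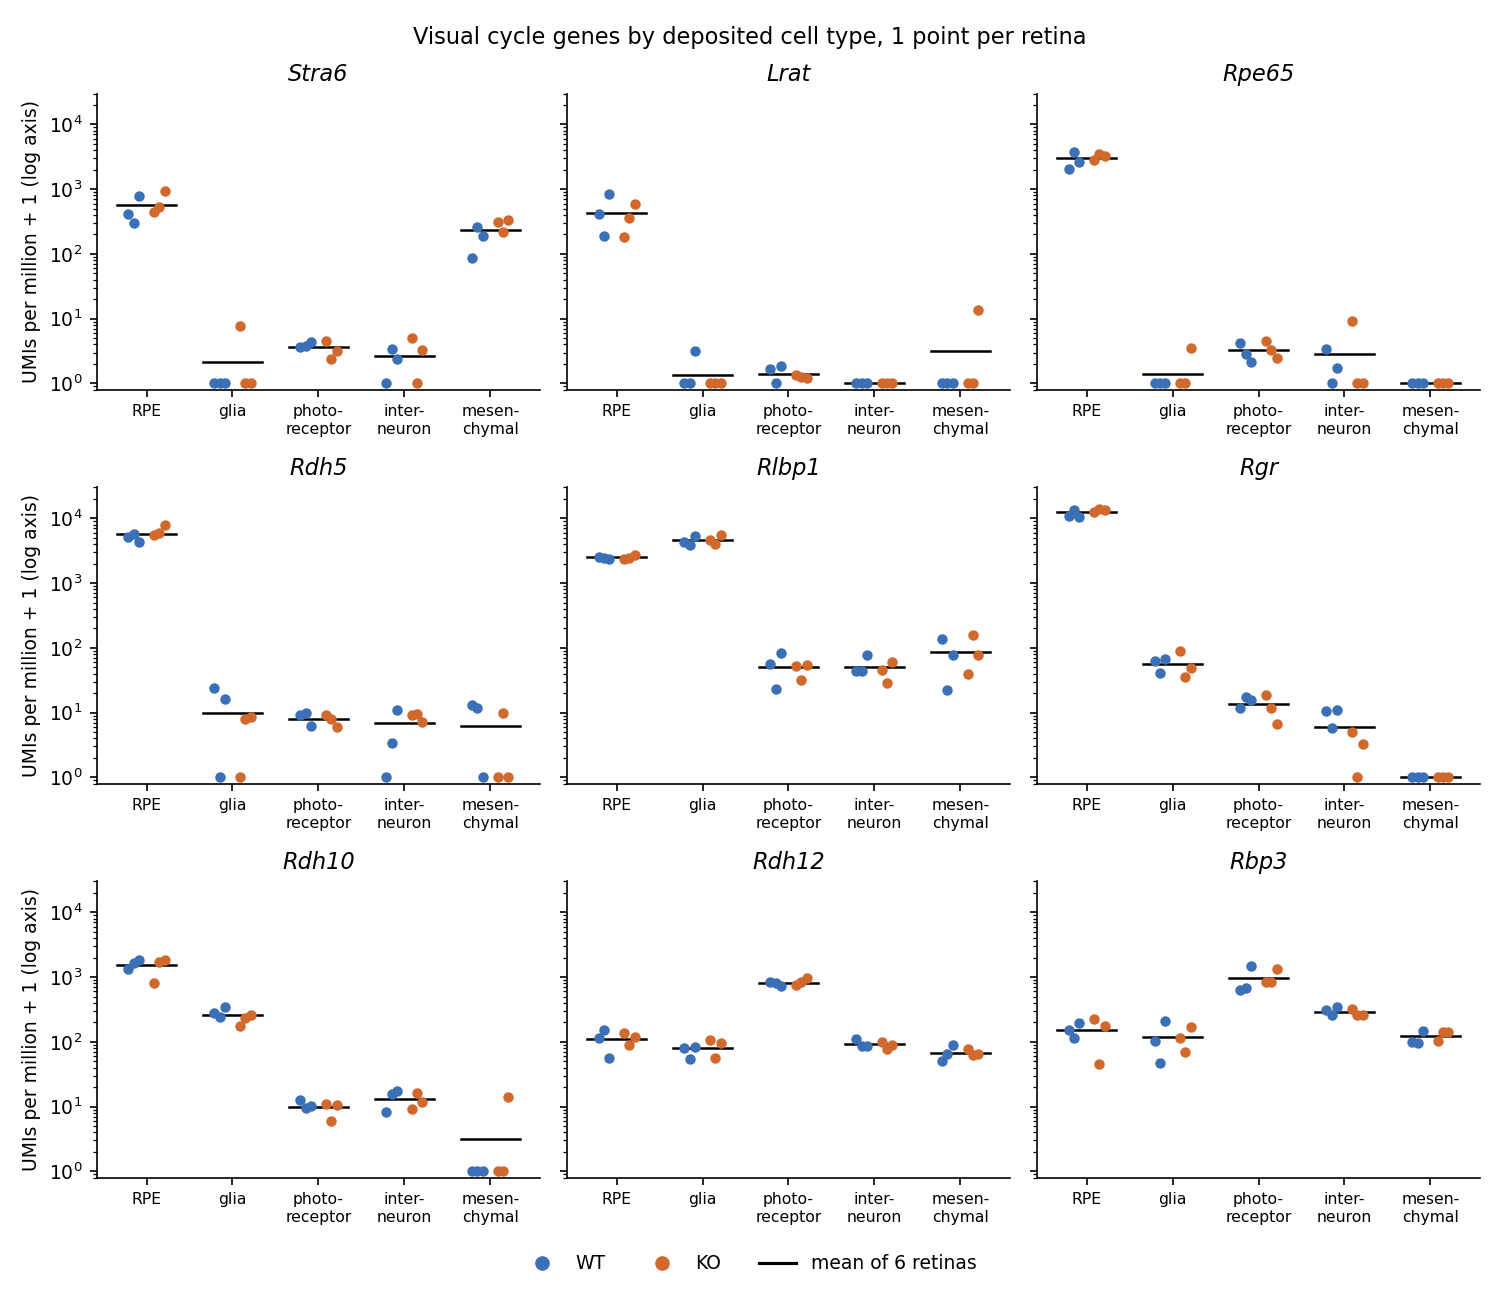
Level of each visual cycle gene (CPM plus 1, log axis) in the 5 cell types. Each point is a retina (blue WT, orange KO), points on the lowest line are retinas with 0 UMIs, and the bar is the mean of 6 retinas. Stra6, Lrat, Rpe65, Rdh5, Rgr and Rdh10 are highest in RPE cells, Rlbp1 in glia (3895 to 5493 CPM), and Rdh12 and Rbp3 in photoreceptors.

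Of the 9 visual cycle genes, Rdh12 and Rbp3 were highest in photoreceptors. Rdh12 encodes a retinol dehydrogenase of the inner segments that reduces retinaldehydes, and lies on chromosome 12 from 79208914 to 79222665. Photoreceptors had 838, 797 and 717 CPM in WT and 763, 837 and 954 CPM in KO, a mean of 818 ± 81.0 from 17451 UMIs, which were 96.9% of the typed UMIs of the gene. RPE cells, interneurons, glia and mesenchymal cells had 110, 90.9, 79.0 and 67.3 CPM, and each overlapped the next. These levels were 8.39% to 13.4% of the photoreceptor level, and the summed level of 9 rod markers stood at 11.7% to 13.1% of its own in the same 4 types. The order of the types differed between these measures, since glia held 13.1% of the rod list and 9.73% of Rdh12, and interneurons 12.9% and 11.2%. The part of rod RNA in the Rdh12 signal outside photoreceptors was not tested.

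Rbp3 encodes IRBP, the retinoid carrier of the space between photoreceptors and RPE, and lies on chromosome 14 from 33954003 to 33964216. Photoreceptors had 638, 683 and 1479 CPM in WT and 838, 841 and 1308 CPM in KO, a mean of 965 ± 346 from 21070 UMIs. Both batch 1 retinas stood above the 4 of batch 2 (means of 1393 and 750.0 CPM), whereas for Rdh12 the batches overlapped. Interneurons had 311, 262 and 340.5 CPM in WT and 317, 257 and 259 CPM in KO, a mean of 291 ± 36.2 from 1256 UMIs. That range lay below the photoreceptors and above RPE, mesenchymal cells and glia, whose means were 150.1, 120.3 and 118 CPM.

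Rbp3 in interneurons was set beside rod and cone markers. The interneuron level was 33.1% of the photoreceptor level (19.8% to 48.7% over the retinas), against 11.2% for Rdh12 (9.19% to 13.0%) and 12.9% for the summed level of the 9 rod markers (11.5% to 14.6%). The rod transducin gene Gnat1 stood at 17.6% (13.2% to 21.9%), a range that overlapped that of Rbp3. The 8 cone markers varied there: Opn1mw, Arr3, Pde6h, Opn1sw and Pde6c stood at 29.5%, 31.1%, 32.3%, 33.3% and 37.5% of their photoreceptor levels, and Gnat2, Gngt2 and Gnb3 at 87.2%, 113% and 270.3%. These shares are means over both genotypes, and the study reported Arr3 and Pde6h as lower in KO than in WT interneurons. Interneurons without a UMI of Arr3, Opn1sw, Opn1mw, Pde6h or Pde6c, a selection made after these values were seen, numbered 949 and had 263 ± 42.0 CPM of Rbp3, which was 30.1% of the photoreceptor level. The 417 interneurons with UMIs of at least 2 of these 5 genes had 450.3 ± 112 CPM, or 54.1%. These 417 cells held the 5 genes together at 154% of the photoreceptor level (50.1% to 220% over the retinas). Their median was 2524 UMIs per cell, against 1626 in the 949. The part of cone RNA in their Rbp3 level was not tested.

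Within the interneurons, most Rbp3 UMIs lay in bipolar cells, which relay photoreceptor signals to the inner retina. The 1675 cells led by a bipolar list held 1109 of the 1256 UMIs (88.3%) at 337 ± 60.0 CPM, and the 352 led by an amacrine list held 122 at 65.1 ± 50.8 CPM. Of all genes these groups held 3096780 and 1101675 UMIs. The 53 interneurons with no leading list held 25 Rbp3 UMIs at 1098 ± 1229 CPM (186 to 3460 over the retinas). Bipolar-list cells were higher than amacrine-list cells in 6 of 6 retinas, although 4 of the retinas had 3 to 18 amacrine-list cells. With the 5 cone markers at 0 UMIs, 801 bipolar-list cells had 294 ± 49.4 CPM of Rbp3 and 94.9 ± 37.4 CPM of Rdh12, and 115 amacrine-list cells had 46.9 ± 42.5 and 58.3 ± 62.0 CPM.

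Cones and rods differed in opposite directions for the 2 photoreceptor genes. A photoreceptor with UMIs of at least 3 of 8 cone markers was taken as cone-marker positive, which gave 1312 cells with a median of 1579.5 UMIs, and 41047 others with a median of 419. Near this limit lay 2299 cells with 2 markers and 323 with exactly 3. Rbp3 in the cone-marker cells was 1539, 1371 and 2314 CPM in WT and 1529, 1626 and 2228 CPM in KO, a mean of 1768 ± 399, against 875 ± 320 in the others (549 to 1313). Rdh12 was 328, 232 and 366 CPM in WT and 346, 240 and 374 CPM in KO, a mean of 314 ± 62.9, against 871 ± 80.1 in the others (787 to 1005).

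In each of the 6 retinas the cone-marker cells were higher in Rbp3, 1.76-fold to 2.80-fold, and lower in Rdh12, at 0.267 to 0.465 of the other cells. With limits chosen after seeing the data, the 874 cells with at least 6 cone markers had 1879 ± 454 CPM of Rbp3 and 237 ± 38.0 CPM of Rdh12, and the 27819 photoreceptors without any had 848 ± 294 and 892 ± 80.6 CPM.

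**Figure D3:**
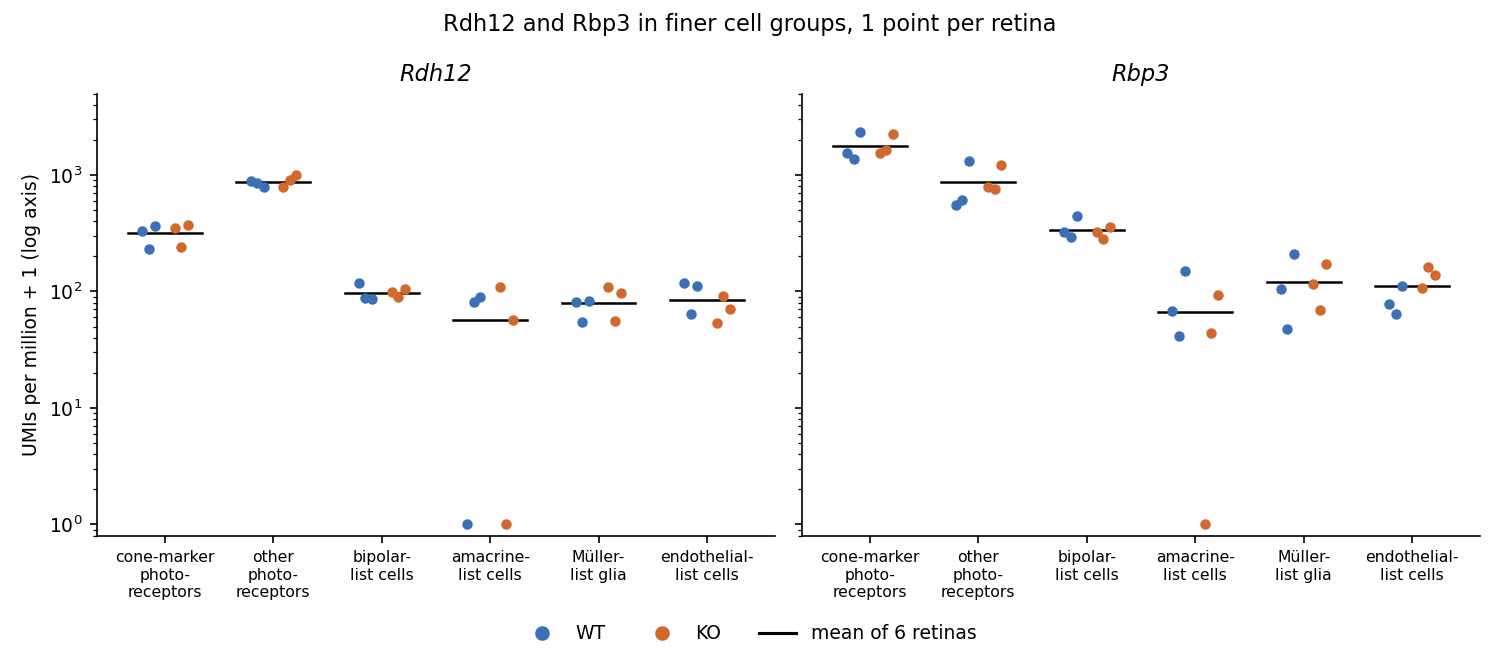
Rdh12 (left) and Rbp3 (right) level (CPM plus 1, log axis) in cell groups set by marker lists. Each point is a retina (blue WT, orange KO), points on the lowest line are retinas with 0 UMIs, and the bar is the mean of 6 retinas. Rdh12 is higher in the other photoreceptors (787 to 1005 CPM) than in cone-marker ones (232 to 374 CPM), Rbp3 is higher in cone-marker ones, and Rbp3 in bipolar-list cells (280 to 445 CPM) lies above amacrine-list cells in each retina.

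The levels over all 30 sums (5 types in 6 retinas) also show which genes ran most like each of the 9. By Pearson r of log2(CPM + 10) among 13752 other genes with at least 100 UMIs, Lrat, Rpe65 and Rdh5 shared Cltrn and the lactate transporter gene Slc16a8 as their closest genes (r of 0.972 to 0.995). Rlbp1 ran closest to Pdpn and Spon1 (0.99 and 0.98), Rgr to Ptgds and Arl6ip1 (0.98 and 0.97), Rdh10 to Col9a3 and Trpm3 (0.98 and 0.97), and Stra6 to Rapgef4 and Smpdl3a (0.97 and 0.94). Rdh12 ran closest to Lbhd1 and 1810009A15Rik (0.95 for both), and Rbp3 to the outer segment gene Rom1 (0.94) and Fam57b (0.91). Among the members, Rpe65 and Rdh5 had r = 0.99, Rlbp1 and Rdh10 0.89 and Rdh12 and Rbp3 0.85. The sums of a retina share a library and those of a type share a depth, so these values describe the pattern only.

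Other retinoid genes were taken from a list of 47, of which 25 had at least 100 UMIs in typed cells. Of these, 7 were highest in RPE cells, 7 in glia, 6 in photoreceptors, 4 in mesenchymal cells and 1 in interneurons by their mean. For 6 of the 25, 3 of them in RPE cells, 2 in glia and 1 in mesenchymal cells, the 6 retinas of the highest type lay clear of every other type, and for the rest it overlapped another. The genes named here were picked in each type by their CPM, which does not order their molecules. In the RPE, Ttr, whose product carries thyroxine, had 83567 ± 9154 CPM, and Degs1, a lipid desaturase gene, had 436 ± 159. In glia, Rrh, an opsin gene named peropsin, had 304 ± 81.3 CPM and Dhrs7 had 239.6 ± 32.7. Rrh was also counted in RPE cells at 235 ± 86.0 CPM (134 to 351), overlapping the glial range of 214 to 393.

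Dhrs3, which encodes a retinaldehyde reductase, had 228 ± 24.8 CPM in photoreceptors, 202 ± 27.8 in mesenchymal cells and 60.8 ± 13.9 in interneurons. The lipoprotein receptor gene Scarb1 had 86.7 ± 14.9 CPM in photoreceptors and 99.2 ± 19.4 in mesenchymal cells. The lipase gene Pnpla2 had 96.3 ± 21.7 CPM in mesenchymal cells, and Rdh14 had 45.4 ± 17.3 in interneurons. Ttr had 79.4 ± 24.2 CPM in photoreceptors and 62.5 ± 22.4 in interneurons. The Ttr means outside the RPE were 0.0559% to 0.0954% of its RPE level.

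Sums per retina were compared between KO and WT with the quasi-likelihood test of edgeR, in each type and in all cells together, to ask whether loss of Dram2 moved a visual cycle gene. At an adjusted p under 0.05, 0 of the members tested were called in any comparison, and 0% of all genes tested were called in each. The members tested were 7 of 308 genes in RPE cells (0% called), 5 of 4130 in glia (0% called), 6 of 13053 in photoreceptors (0% called), 3 of 7698 in interneurons (0% called), 2 of 1717 in mesenchymal cells (0% called) and 8 of 15330 in all cells (0% called). At an unadjusted p under 0.05 the numbers of genes were 11, 51, 109, 86, 150 and 101 in that order. Limma-voom also called 0 in each, and DESeq2 called 1 in RPE cells and 0 elsewhere. By contrast, the study's own limma-voom comparison reported genes at an adjusted p under 0.05 in interneurons, mesenchymal cells and RPE cells, but not in photoreceptors. The members were not among the genes it listed, and the source of the different counts was not tested. With the labelled batch as a covariate, edgeR called 3 genes in RPE cells and 21 in mesenchymal cells, limma-voom called 5 and 35, and edgeR with the replicate number as a block called 4 and 26. These fits called 0 genes in the other comparisons, and 0 of the genes called were members. In the sums of all cells alone, fewer cells of a type and fewer UMIs per cell cannot be told apart.

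In RPE cells the log2 fold changes (KO against WT, with SE) were 0.17 ± 0.43 for Stra6, −0.56 ± 0.60 for Lrat, 0.10 ± 0.25 for Rpe65 and 0.27 ± 0.18 for Rdh5. For Rlbp1, Rgr and Rdh10 they were −0.06 ± 0.19, 0.10 ± 0.13 and −0.27 ± 0.32. The edgeR adjusted p ran from 0.910 to 0.999, and the WT and KO ranges overlapped for each of the 7. Their median was 0.10 beside −0.01 over all 308 genes tested. In the other types the member medians were −0.08 in glia, −0.18 in photoreceptors, −0.13 in interneurons and 0.39 in mesenchymal cells, beside −0.02, −0.01, −0.01 and 0.03 over all genes. These medians rest on estimates of unsteady sign: with each retina left out in turn, 5 of the 6 photoreceptor estimates, 3 of 5 in glia, 2 of 3 in interneurons, 1 of 2 in mesenchymal cells and 4 of 7 in RPE cells changed sign. The glial median is that of Rbp3, which ran from −0.46 to 0.53. The SEs in the RPE cells were 0.13 to 0.60, and a change has to be well above its SE to be called. The smallest change that these sums could have shown was not determined.

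In glia, Rlbp1 differed by 0.01 ± 0.18, Rgr by −0.12 ± 0.40 and Rdh10 by −0.41 ± 0.24 (edgeR adjusted p of 1.00 each). In photoreceptors, Rdh12 differed by 0.15 ± 0.19 and Rbp3 by 0.12 ± 0.37, and Rbp3 in interneurons by −0.13 ± 0.21 (adjusted p of 0.998 to 1.00 in edgeR). Stra6 in mesenchymal cells differed by 0.63 ± 0.38 (edgeR adjusted p = 0.679). Beside it, the summed endothelial markers of the mesenchymal sums ran from 4393 to 8613 CPM in WT and from 8109 to 10953 CPM in KO, and the microglia markers from 15583 to 20482 and from 4366 to 13177. The part of this makeup in the Stra6 difference was not tested.

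Rdh10 in all cells was the only one of the 31 member tests with an unadjusted p under 0.05. The whole retinas held 37.8, 28.3 and 49.2 CPM in WT and 22.2, 22.1 and 29.1 CPM in KO, so the genotypes overlapped only across the batches: KO replicate 3, of batch 1, lay above WT replicate 2, of batch 2. Within each batch every KO value lay below every WT value, with 1 retina per genotype in batch 1. How many of the 15330 genes tested keep this order was not counted, and Rdh10 is singled out here by its p. Nothing is therefore read from the order. The log2 fold change was −0.59 ± 0.24 (edgeR adjusted p = 1.00). It was −0.59 ± 0.17 with batch as a covariate (edgeR adjusted p = 0.906) and −0.58 ± 0.17 with the replicate block (edgeR adjusted p = 0.908). Of the UMIs of a retina, RPE cells took 0.636% to 0.682% in WT and 0.260% to 0.646% in KO, and glia 3.72% to 8.01% and 3.32% to 6.00%. Their part in the whole-retina value was not tested.

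**Figure D4:**
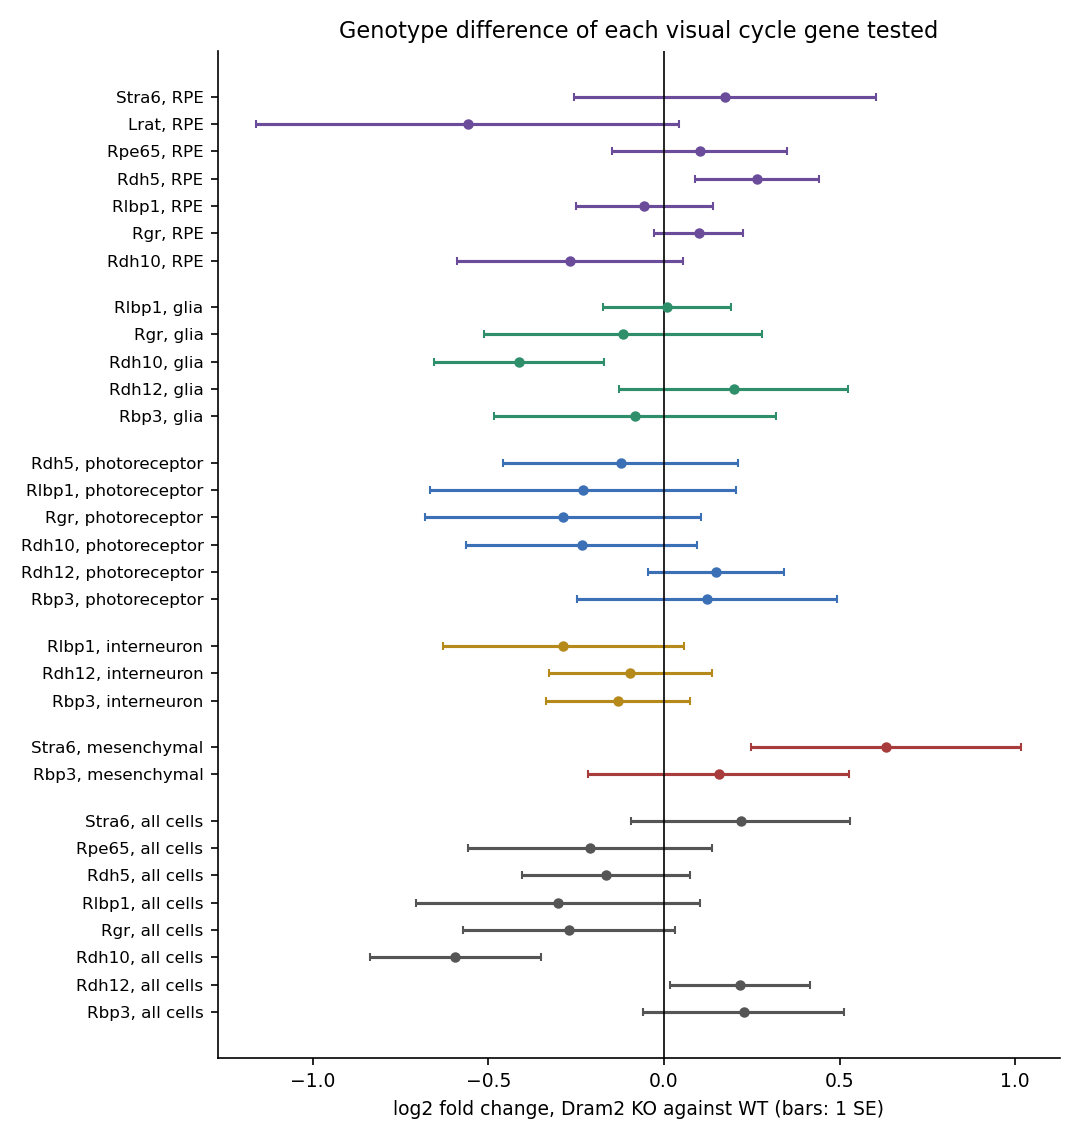
Log2 fold change of Dram2 KO against WT for each visual cycle gene that passed the filter on low counts, by cell type and in all cells (31 tests). Points are edgeR estimates and bars 1 SE. Most bars cross 0, the estimate for Lrat in RPE cells has the widest bar (SE 0.60), and 0 of the estimates passed an adjusted p of 0.05.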

How the data were processed

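Retinas labelled Dram2 WT (3) and Dram2 KO (3) were profiled with the 10x Genomics single cell 3′ v2 kit. Per the labels, reads were processed with Cell Ranger 3.1.0 (submitters' processing notes) against GRCm38, and the authors counted exonic reads. The deposited table holds raw UMI counts per gene and cell, not normalized, and a second deposited table gives the retina, batch and type of each cell, from Louvain clusters the authors made in Seurat after integration over the batch. Every cell column could be assigned to a retina. Cell names are running numbers, so barcodes shared by libraries could not be counted. Doublets were not removed. The labels also speak in places of 2 samples and of choroid, and the 6 retina labels were used here. Nothing says whether retinas came from separate animals, so p values measure the spread between these samples, which may be technical. Since 3′ counting does not read the deleted part of Dram2, the deletion itself cannot be seen in these counts. The level of Dram2 was not used to check the genotype labels. No library repeated another: over 15 pairs of retinas, the chi-square per degree of freedom of photoreceptor counts was at least 1.67. KO replicate 1 stood apart within batch 2, at 11.8 to 17.3 from the other retinas of that batch, which differed from each other by 1.67 to 3.86.

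Counts were summed per retina and type and compared by the quasi-likelihood test of edgeR, with genotype as the only term, after filterByExpr and TMM scaling, and p values were adjusted by Benjamini-Hochberg over all genes tested. The study used limma-voom. CPM carry no TMM factors. The test was tested on simulated data. Named genes are all 9 members, the 3 highest of the wider retinoid list in each type and the 2 genes most like each member; markers serve as reference levels, and some genes that this rule selects are not reported here. The members and lists were chosen with earlier results of these data known. Alternatives tried were RLE scaling, DESeq2, limma-voom, testing without the filter, an added fold change above 2, a batch covariate, a replicate block, stricter cells (at least 500 UMIs and at most 10% mitochondrial), the mean of each cell's own share of UMIs, WT or batch 2 retinas alone, and each retina left out. Fits used edgeR 4.0.16, limma 3.58.1 and DESeq2 1.42.0 in R 4.3.3, and the rest pandas 2.3.3, scipy 1.17.1, numpy 2.4.6 and matplotlib 3.10.9 in Python 3.11.15. Positions are from GENCODE M21 and promoters from RefSeq. Intervals and limits for a count of 0 cover counting error only.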

Additional observations from a re-analysis of the deposited data

Results flagged for a closer look

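The 629 cells that the authors left without a type, which entered no comparison between types above, held 379054 UMIs and carried signal of 4 visual cycle genes above the 7.91 CPM that a count of 0 allows. Rbp3 stood at 1111 CPM there (421 UMIs) and Rdh12 at 704 CPM (267 UMIs), near their photoreceptor means of 965 and 818 CPM. Rlbp1 stood at 47.5 CPM (18 UMIs), near its photoreceptor mean of 49.3 CPM. Rdh10 was at 10.6 CPM from 4 UMIs. Stra6, Lrat and Rpe65 had 0 UMIs in these cells, Rdh5 had 1 and Rgr 3. Groups of 3 retinas are too small for a test of single outlying retinas, and in types with at least 100 UMIs of a gene the genotypes did not separate in opposite directions. Lrat had no such type and Stra6 and Rpe65 had 1, so opposite directions could not have been seen for them.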

How the results depend on the processing

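Each of the 9 genes kept the type in which it was highest under all alternatives run: stricter cells, the mean over cells, WT retinas, batch 2 or batch 1 retinas alone (batch 1 chosen after seeing the data) and each retina left out. The size of 7 of 110 level ratios and levels moved by more than the retina spread. On the log2 scale these were the ratio of RPE to mesenchymal cells for Lrat (7.64; 9.31 as the mean over cells, 6.79 in batch 1), of RPE to photoreceptors for Rpe65 (10.4; 11.002 with stricter cells, 9.71 as the mean over cells, 11.13 in batch 1), of photoreceptors to interneurons for Rbp3 (1.73; 2.22 in batch 1) and of cone-marker to other photoreceptors for Rdh12 (−1.47; −1.91 with at least 6 markers against none). Against a type with 0 UMIs of Lrat no ratio could be given. None of 465 member tests under the alternatives was called (lowest adjusted p of 0.378, over edgeR, limma-voom and DESeq2 fits). The number of genes called over all genes, 0 in edgeR with genotype as the only term, became in RPE cells 1 with DESeq2, 3 with no filter, 3 with batch as an edgeR covariate, 5 with batch in limma-voom and 4 with the replicate block, and in mesenchymal cells 28 with no filter, 21 and 35 with batch in edgeR and limma-voom and 26 with the replicate block. With no filter it was 1 each in photoreceptors, interneurons and all cells. With each retina left out it ran from 0 to 2 in RPE cells (2 without WT replicate 3), from 0 to 7 in mesenchymal cells (7 without KO replicate 2) and stayed 0 elsewhere; the cause was not tested. The labels tie number 3 to batch 1 and numbers 1 and 2 to batch 2, so a number marks a shared batch but not a pair within it. Deviations of same-numbered retinas correlated at 0.07, 0.26 and 0.47 in RPE cells and at −0.08, 0.63 and 0.57 in photoreceptors. The sign turned when 1 retina was left out in 19 of the 31 member tests, among them Stra6 (from −0.11 to 0.74), Rpe65 (−0.093 to 0.31), Rlbp1 (−0.093 to 0.017) and Rdh10 (−0.41 to 0.051) in RPE cells, Rlbp1 (−0.079 to 0.082) and Rgr (−0.44 to 0.053) in glia and Rbp3 (−0.14 to 0.63) in photoreceptors, and with no filter for Rlbp1 in glia (−0.0053). The Rdh10 difference in all cells ran from −0.75 to −0.39 with each retina left out. Stra6 in mesenchymal cells was 0.29 without WT replicate 1. RPE values rest on as few as 4 UMIs per retina for Lrat, 2 for Rdh12 and 1 for Rbp3, and counting error limits what they can show.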
